A study of Mus musculus with 24 samples.

Results

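Transcript levels of 6 genes were followed across 24 RNA-seq libraries of mouse embryonic fibroblasts (MEFs), cells grown from the connective tissue of mouse embryos. The genes were the α-arrestins Txnip, Arrdc2, Arrdc3 and Arrdc4 and the glucose-sensing transcription factors Mlxip and Mlxipl. They were found by gene name among the 55487 genes of the count table, and all 6 were among the 15828 genes that passed the filter on low counts. Mlxipl passed it through its counts in AMPK KO cells. The genes were selected on the level of Arrdc4, which was lower with MK-8722 than with DMSO in cells without AMPK, so the values of that comparison, and of its contrast with WT, are given as a description with no test. WT MEFs and MEFs labelled AMPK KO were each treated with vehicle (DMSO), with MK-8722, which activates AMP-activated protein kinase (AMPK), or with the MTOR kinase inhibitor torin1, with 4 libraries per group. In the methods of the study, the AMPK KO cells were described as lacking both catalytic subunits of AMPK (prkaa1 prkaa2 double knockout). The labels give neither dose nor duration of the treatments, and the p-values below measure the spread between passages of 1 WT and 1 AMPK KO line.

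α-Arrestins are adaptor proteins that bring membrane proteins to ubiquitin ligases of the NEDD4 family and so promote their removal from the cell surface. TXNIP and ARRDC4 are known to reduce glucose uptake by acting on glucose transporters, and TXNIP also binds thioredoxin. Mlxip encodes MondoA and Mlxipl encodes ChREBP, which pair with the protein MLX, respond to phosphorylated glucose and bind carbohydrate response elements in genes such as Txnip and Arrdc4.

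Passage ran from 12 to 15 in WT and from 16 to 19 in AMPK KO cells, with each passage once in every group of its genotype, so passage and genotype cannot be told apart between the lines. Total counts were 26900240 to 34192685 per library. All libraries carry the same batch label, and no comparison could be repeated within batches. Transcripts of the targeted genes remained in the libraries labelled AMPK KO (Prkaa1 at 65.6 to 82.5 CPM against 71.3 to 84.5 in WT, and Prkaa2 at 2.34 to 5.71 CPM against 3.22 to 9.01), so they do not check the label. Of 8 fibroblast markers, Vim (1470 to 5240 CPM) and Col1a1 (319 to 4840 CPM) were high, whereas Dcn did not exceed 0.331 CPM and was at 0 in 3 libraries. Thy1 (0.12 to 2.28 CPM) and Pdgfra (0.133 to 6.49 CPM) were low as well. The summed level of the 8 markers was 7160 to 11900 CPM in WT and 2390 to 3310 CPM in AMPK KO cells. Levels are given in CPM, that is, counts relative to the TMM-normalized size of each library. Summed markers of epithelial cells were at 1.37 to 6.72 CPM, those of blood cells at 0.12 to 0.584 and those of muscle at 0.366 to 3.19 CPM over all libraries. In bulk RNA, fewer cells that express a gene and less RNA per cell cannot be told apart.

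Because Txnip and Arrdc4 varied together in these libraries, their promoters are shown with that of Arrdc3. By group means, Arrdc3 had their order of treatments in WT but not in AMPK KO, and it was picked after its values were seen. Txnip (ENSMUSG00000038393) lies on chromosome 3 at 96557957 to 96561883 on the plus strand, and Arrdc4 (ENSMUSG00000042659) on chromosome 7 from 68736995 to 68749241, minus strand. Arrdc3 (ENSMUSG00000074794) spans chromosome 13 from 80883384 to 80896042 on the plus strand. The sequences run 5′ to 3′ from 250 bases before to 50 bases after the start site, from RefSeq on GRCm38.p6. Capitals mark CACGNG, the element that occurs as a pair in carbohydrate response elements, and CCAAT, the element bound by NF-Y, each on either strand.
Txnip, chr3:96557707-96558006, plus strand: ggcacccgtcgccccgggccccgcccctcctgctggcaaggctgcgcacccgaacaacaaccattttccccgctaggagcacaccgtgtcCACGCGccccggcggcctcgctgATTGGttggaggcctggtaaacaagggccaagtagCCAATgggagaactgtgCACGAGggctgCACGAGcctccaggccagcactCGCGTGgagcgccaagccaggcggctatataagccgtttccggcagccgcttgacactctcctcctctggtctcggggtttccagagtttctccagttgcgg
Arrdc4, chr7:68749189-68749488, minus strand: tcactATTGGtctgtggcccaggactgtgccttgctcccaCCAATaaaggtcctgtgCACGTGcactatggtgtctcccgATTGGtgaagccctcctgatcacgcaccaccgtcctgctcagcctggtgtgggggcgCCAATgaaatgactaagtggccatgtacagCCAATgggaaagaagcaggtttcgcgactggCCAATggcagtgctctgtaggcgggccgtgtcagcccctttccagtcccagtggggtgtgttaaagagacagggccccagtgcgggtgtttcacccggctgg
Arrdc3, chr13:80883134-80883433, plus strand: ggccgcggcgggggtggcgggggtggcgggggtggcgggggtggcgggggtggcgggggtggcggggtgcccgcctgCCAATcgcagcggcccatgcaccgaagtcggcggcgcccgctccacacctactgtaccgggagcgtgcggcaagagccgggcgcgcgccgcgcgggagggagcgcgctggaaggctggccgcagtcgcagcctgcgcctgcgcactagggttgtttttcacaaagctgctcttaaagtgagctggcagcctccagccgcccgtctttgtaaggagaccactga

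Such a pair, with both parts in the same direction and 5 bases between them, was searched for on either strand as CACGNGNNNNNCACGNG. It stood in the Txnip promoter once, as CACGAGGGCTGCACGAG from position -85. Pairs with parts in opposite directions were not searched for. This 17-letter layout was found in 16 of 32841 RefSeq promoters of this length (0.0487%). Arrdc4 had no such pair in the window. It held a CACGTG, a palindrome that is also a CACGNG, at position -193 (from the start site), and CACGTG occurred in 7.15% of promoters. CCAAT was found 6 times in the Arrdc4 window, 2 times in that of Txnip and once in that of Arrdc3, and 37.4% of promoters held it at least once. The Arrdc3 window had no CACGNG, which 27.5% of promoters contained. The other genes lie on chromosome 8 from 70835129 to 70839720, minus strand (Arrdc2, ENSMUSG00000002910), and on the plus strand of chromosome 5 from 123394798 to 123457932 (Mlxip, ENSMUSG00000038342) and from 135089890 to 135138382 (Mlxipl, ENSMUSG00000005373). Among these genes, CACGNG was found once in the Arrdc2 window, at position -77, and not in that of Mlxip. For Mlxipl, a window held it 2 times, at positions -196 and -98, the latter as the palindrome seen in Arrdc4. Another Mlxipl window had none. The element was thus not limited to Txnip and Arrdc4. The element bound by NF-Y stood 3 times in the Arrdc2 window and 2 times in that of Mlxip. Matches are descriptions of letters in a window and do not show binding.

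Per length, Txnip had the highest mean of the 6 transcripts over the 24 libraries, at 24.1 TPM (transcript abundance corrected for length and depth). By that mean Mlxip followed at 14.5 TPM, Arrdc2 at 7.45, Arrdc3 at 4.9 and Arrdc4 at 4.3 TPM, and Mlxipl stood at 0.224 TPM. This order did not hold in every group. Txnip reached 74.3 TPM with torin1 in WT and 36.4 in AMPK KO. Mlxip was above Txnip in WT DMSO (17.7 against 11.6 TPM) and with MK-8722 in WT (16 against 3.8) and AMPK KO (13.8 against 5.33). In AMPK KO DMSO, Mlxip and Txnip were at 12.8 and 12.9 TPM. Txnip was also the gene with the widest range of these 6 that had counts in every group, since its highest group mean in CPM was 17.9 times its lowest. The same ratio was 6 for Arrdc4, 3.7 for Arrdc2, 2.08 for Arrdc3 and 1.75 for Mlxip.

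The order of the groups differed between the genes. For Txnip it ran from WT torin1 (118 CPM) over AMPK KO torin1 (54.8), AMPK KO DMSO (20.8), WT DMSO (20.1) and AMPK KO MK-8722 (8.73) to WT MK-8722 (6.57 CPM). The ranges of neighbours overlapped from AMPK KO DMSO downwards. Arrdc4 had the same order, from 10.6 to 1.76 CPM, with the same overlaps. For Arrdc2 the order began with AMPK KO torin1 (13.5 CPM) and ended with WT DMSO (3.65), and AMPK KO MK-8722, AMPK KO DMSO and WT torin1 overlapped in sequence. Mlxip was highest in WT DMSO (77.4 CPM) and lowest in AMPK KO torin1 (44.3), and overlapped among AMPK KO MK-8722, WT torin1 and AMPK KO DMSO. For Arrdc3 the order ran from WT torin1 (14.5 CPM) to AMPK KO torin1 (6.97), and neighbours overlapped except AMPK KO MK-8722 (9.9) and AMPK KO DMSO (7.68).

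**Figure D1:**
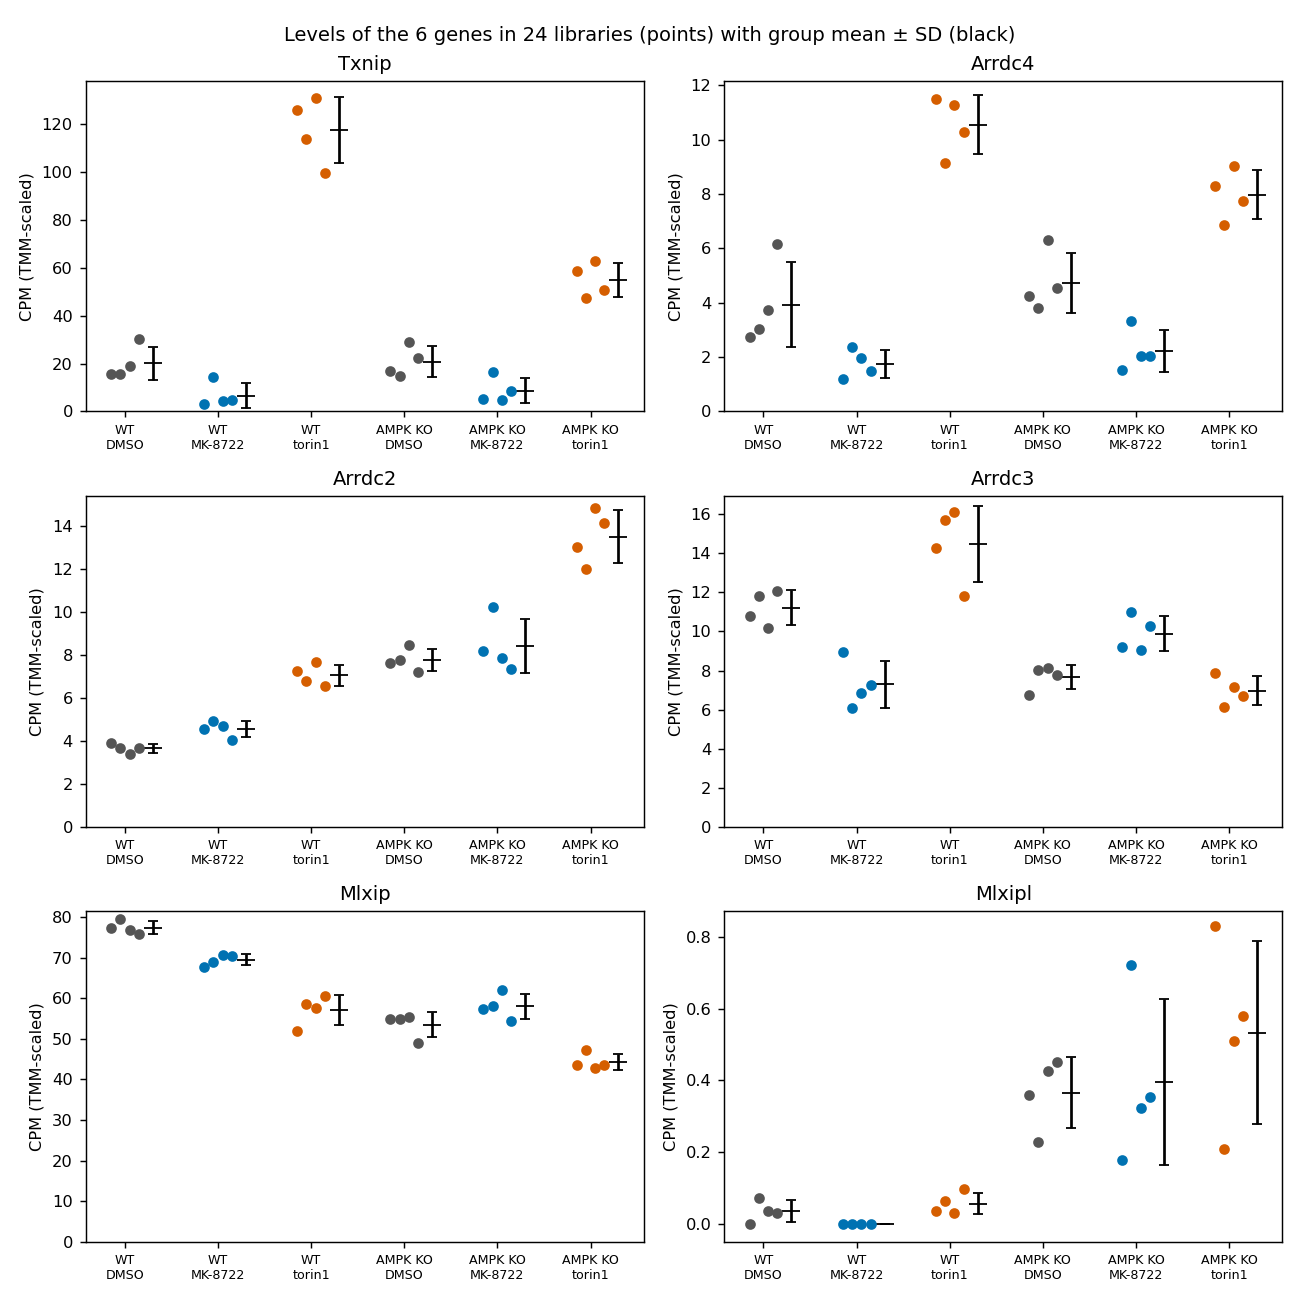
Each panel plots 1 gene in CPM (TMM-scaled, linear axis), with 1 point per library, 6 groups of 4 libraries, and the group mean ± SD in black. Txnip and Arrdc4 were lowest with MK-8722 and highest with torin1 in both genotypes, whereas Arrdc2 and Mlxipl were higher in AMPK KO than in WT in every treatment.

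With MK-8722 in WT cells, Txnip, Arrdc4 and Arrdc3 fell and Arrdc2 rose slightly. Txnip was at 15.6, 15.6, 19.1 and 30.1 CPM in the DMSO libraries and at 2.96, 14.3, 4.4 and 4.62 CPM with MK-8722. The groups did not overlap, and the highest library with MK-8722, from passage 12, was close to the lowest DMSO libraries. Txnip fell by 1.61 on the log2 scale (SE 0.38, edgeR adjusted p = 0.0022), from a mean of 20.1 ± 6.89 to 6.57 ± 5.2 CPM (SD, n = 4 each). It was lower with MK-8722 in 4 of 4 passages, by 2.1-fold in passage 12 and by 5.17-fold in passage 13.

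Arrdc4, the close relative of Txnip, was at 2.74, 3.04, 3.75 and 6.18 CPM with DMSO and at 1.21, 2.38, 1.96 and 1.5 CPM with MK-8722 in WT cells. All 4 treated libraries lay below all 4 vehicle libraries. The decrease was 1.16 on the log2 scale (log2 fold change -1.16, SE 0.26, edgeR adjusted p = 0.0014) and was seen in 4 of 4 passages. Arrdc3, whose protein takes part in the down-regulation of integrin β4, was at 10.8, 11.8, 10.2 and 12.1 CPM with DMSO and at 8.95, 6.07, 6.87 and 7.25 CPM with MK-8722. These groups were also separate (log2 fold change -0.62, SE 0.11, edgeR adjusted p = 0.00018).

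Arrdc2, a less studied α-arrestin, was at 3.9, 3.66, 3.39 and 3.64 CPM with DMSO and at 4.55, 4.9, 4.67 and 4.02 CPM with MK-8722 in WT. The difference was small (log2 fold change 0.31, SE 0.11, edgeR adjusted p = 0.031) and the call depended on single libraries, since the adjusted p rose above 0.05 when any of 6 of the 8 libraries was left out (WT DMSO replicates 2, 3 and 4 and WT MK-8722 replicates 1, 2 and 3), up to 0.1. The adjusted p was 0.051 with DESeq2, 0.11 with no filter on low counts and 0.063 without the earliest passages. Mlxip was at 75.9 to 79.6 CPM with DMSO and at 67.8 to 70.7 CPM with MK-8722, without overlap, but the difference (log2 -0.16, SE 0.049, edgeR adjusted p = 0.019) was below the fold threshold of 1.2. In all, 4 of the 6 genes were called, 1 higher and 3 lower, against 15.7% of the genes tested in this comparison (10% higher and 5.66% lower). Groups that did not overlap were found for 13.7% of genes upwards and 11.8% downwards. Here and below, a gene is called where the fold was 1.2 or more and the adjusted p was below 0.05. Markers of endothelial cells, 4 in number, summed to 0.807 to 1.21 CPM with DMSO and to 4.36 to 8.53 CPM with MK-8722 in WT. Kdr, which reached 8.41 CPM, led this sum, while Tie1 was at 0 in 22 of 24 libraries. Their part in the results was not tested.

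In AMPK KO cells, the comparison that led to the choice of these genes, Arrdc4 was at 4.25, 3.82, 6.32 and 4.56 CPM with DMSO and at 1.51, 3.34, 2.03 and 2.06 CPM with MK-8722. The groups did not overlap, and the log2 fold change was -1.08 (SE 0.24), given without a test. Txnip was at 16.8, 15, 29.2 and 22.2 CPM with DMSO and at 5.13, 16.3, 4.78 and 8.69 CPM with MK-8722. For Txnip the groups overlapped through the MK-8722 library of passage 16, yet within each of the 4 passages the treated library was lower, by 1.78-fold to 3.25-fold. The log2 fold change of Txnip was -1.25 (SE 0.35). In this comparison 1.56% of all genes tested were called (0.866% higher and 0.695% lower), and the groups did not overlap for 6.1% of genes upwards and 5.6% downwards. The difference of the MK-8722 response between genotypes (AMPK KO minus WT) was 0.08 for Arrdc4 (SE 0.35, 95% interval -0.66 to 0.83) and 0.36 for Txnip (SE 0.52, 95% interval -0.73 to 1.46) on the log2 scale. These intervals include differences larger than the fold threshold in both directions. Leaving out AMPK KO MK-8722 replicate 2 gave -0.12 for Txnip, and leaving out WT MK-8722 replicate 2 gave 1.08. For Arrdc4 it ranged from -0.24 (without WT DMSO replicate 4) to 0.26 (without WT MK-8722 replicate 2), so both differences turned in sign with single libraries.

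Arrdc3 took the opposite course in the knockout line. It was at 6.77, 8.03, 8.15 and 7.77 CPM with DMSO and at 9.21, 11, 9.07 and 10.3 CPM with MK-8722. All 4 treated libraries were above the vehicle libraries, where in WT they had all been below. The log2 fold change was 0.37 (SE 0.11) in AMPK KO cells, and the genotypes differed by 0.99 on the log2 scale (SE 0.16, 95% interval 0.66 to 1.32), again a description without a test. Mlxip was higher with MK-8722 in 4 of 4 passages in AMPK KO cells (log2 fold change 0.12, SE 0.049) and lower in 4 of 4 in WT. Arrdc2 differed by a log2 fold change of 0.11 (SE 0.094). For the difference between genotypes 12.8% of all genes tested were called, 5.12% higher and 7.66% lower.

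**Figure D2:**
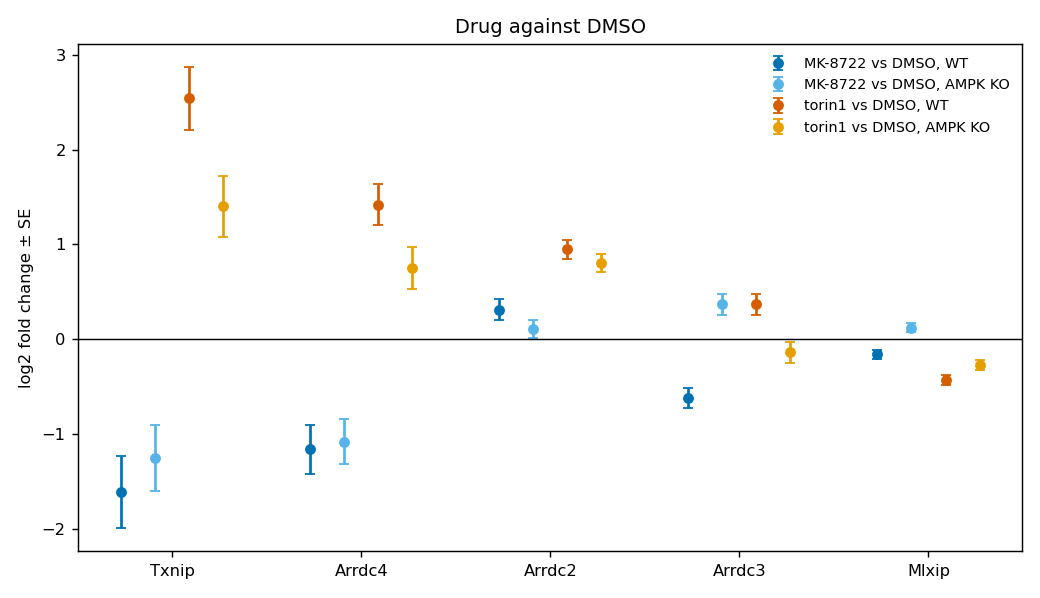
Log2 fold changes of 5 genes (vertical axis, points) with their standard errors (bars) for each drug relative to vehicle, by genotype. Txnip and Arrdc4 lie below 0 with MK-8722 and above 0 with torin1 in both genotypes, and Arrdc3 lies at -0.62 and 0.37 with MK-8722 and at 0.37 and -0.14 with torin1 in WT and AMPK KO, the last not past the test.

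With torin1, Txnip and Arrdc4 changed in the opposite direction. In WT cells Txnip was at 126, 114, 131 and 99.8 CPM with torin1, and the lowest treated library was far above the highest DMSO library at 30.1 CPM. The log2 fold change was 2.54 (SE 0.33, edgeR adjusted p = 3.6e-07), a 5.83-fold rise, and it was positive in 4 of 4 passages, from 1.72 to 3.06. Arrdc4 was at 11.5, 9.14, 11.3 and 10.3 CPM with torin1, above all DMSO libraries (log2 fold change 1.42, SE 0.22, edgeR adjusted p = 6.5e-06). The torin1 and MK-8722 comparisons share their DMSO libraries.

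The other α-arrestins rose less. Arrdc2 reached 7.22, 6.76, 7.65 and 6.56 CPM with torin1 in WT cells, without overlap with DMSO (log2 fold change 0.95, SE 0.1, edgeR adjusted p = 2.7e-08). Arrdc3 was at 14.3, 15.7, 16.1 and 11.8 CPM, and its lowest library overlapped the DMSO range of 10.2 to 12.1 CPM (log2 fold change 0.37, SE 0.11, edgeR adjusted p = 0.0049). With an offset for transcript length the adjusted p of this change was 0.17. Mlxip, which encodes MondoA, fell from 75.9 to 79.6 CPM to 52 to 60.7 CPM (log2 fold change -0.43, SE 0.049, edgeR adjusted p = 5e-08). Thus 5 of the 6 genes were called, 4 higher and 1 lower, where 47.6% of the genes tested were called (26.6% higher and 21.1% lower). Without overlap between the groups were 27.1% of genes upwards and 24.7% downwards.

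In AMPK KO cells Txnip was at 58.7, 47.3, 62.7 and 50.6 CPM with torin1, above the DMSO libraries, of which the highest was 29.2 CPM. The rise was 2.63-fold (log2 fold change 1.4, SE 0.32, edgeR adjusted p = 0.00067) and was present in 4 of 4 passages. Arrdc2 was at 13, 12, 14.8 and 14.1 CPM, against 7.2 to 8.45 CPM with DMSO (log2 fold change 0.8, SE 0.093, edgeR adjusted p = 1.1e-07). Arrdc4 was at 8.3, 6.87, 9.02 and 7.75 CPM, above every DMSO library (log2 fold change 0.75, SE 0.22), with no test read because its DMSO level in AMPK KO cells belonged to the choice of the gene.

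Mlxip was lower with torin1 in AMPK KO cells too, at 42.9 to 47.2 CPM against 48.9 to 55.3 CPM (log2 fold change -0.27, SE 0.05, edgeR adjusted p = 5.4e-05), close to the fold threshold. Its log2 fold change was -0.21 with scaling by library size alone and -0.16 with the length offset, in both of which it was not called. Arrdc3 did not pass the test, at 7.87, 6.15, 7.15 and 6.71 CPM with torin1 (log2 fold change -0.14, SE 0.11, edgeR adjusted p = 0.31). Of the 5 genes tested, 3 were called, 2 higher and 1 lower, with 43.5% of all genes tested called in this comparison (25.9% higher and 17.6% lower) and 30.1% upwards and 23.7% downwards without overlap.

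The torin1 responses of the genotypes were compared by an interaction term, AMPK KO minus WT. For Txnip the difference was -1.15 (SE 0.45, 95% interval -2.09 to -0.21, edgeR adjusted p = 0.11) and was not called. It was called in a fit of the compared groups alone (log2 difference -1.22, edgeR adjusted p = 0.012) and without the earliest passages (-1.39, edgeR adjusted p = 0.0011). Arrdc3 was the gene of the 5 that was called, with a difference of -0.51 (SE 0.16, edgeR adjusted p = 0.04), against 7.07% of all genes tested (4.15% higher and 2.92% lower). Of all calls in this interaction 58.7% were higher, a share that was 27% in a fit of the compared groups alone, 31.2% without the earliest passages and 42.1% with scaling by library size alone. That call was lost with the length offset (edgeR adjusted p = 0.34) and with no filter on low counts (0.052). It was also lost, with adjusted p of up to 0.083, without WT DMSO replicate 1, WT DMSO replicate 3, WT torin1 replicate 2, AMPK KO DMSO replicate 2 or AMPK KO torin1 replicate 3. Arrdc2 (-0.15, edgeR adjusted p = 0.56) and Mlxip (0.16, edgeR adjusted p = 0.15) did not pass. For Arrdc4 the difference was -0.67 (SE 0.31), without a test.

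The drugs were also set against each other in WT cells, where the DMSO libraries play no part. Txnip was 17.8 times higher with torin1 than with MK-8722 (log2 fold change 4.16, SE 0.37, edgeR adjusted p = 1.2e-09), which ranked 16th by size of change among the genes tested. The log2 fold change was 4.89 without WT MK-8722 replicate 2 and 4.96 without the earliest passages. Arrdc4 was 5.99 times higher (log2 fold change 2.58, SE 0.25, edgeR adjusted p = 3.8e-09). Arrdc3 (log2 fold change 0.99) and Arrdc2 (0.64) were higher with torin1 as well, without overlap, and Mlxip was lower (-0.28, SE 0.049). Leaving Mlxipl aside, 5 of 5 genes were called, 4 higher and 1 lower, where 45.7% of genes tested were (24.5% higher and 21.2% lower, with 24.7% upwards and 24.2% downwards without overlap). Mlxipl had at most 3 counts in any of these libraries and passed the filter through AMPK KO cells, so neither a fold nor a call is given for it. The Mlxip call was lost when any of 5 of the 8 libraries was left out (WT MK-8722 replicates 2, 3 and 4 and WT torin1 replicates 1 and 3), where the log2 fold change was between -0.21 and -0.26. It was also lost with scaling by library size alone (-0.19), with at least 10 counts required in every library (-0.23) and with the length offset (-0.25).

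Within groups, Txnip and Arrdc4 differed by passage. The earliest passage of each genotype had the highest level of both genes in DMSO and with MK-8722. For Txnip, passage 12 stood at 30.1 CPM in DMSO and 14.3 CPM with MK-8722, and passage 16 at 29.2 and 16.3 CPM. With torin1 these passages did not stand out, with 99.8 CPM in passage 12, the lowest of its group, and 58.7 CPM in passage 16. Without both earliest passages, a choice made after the data had been seen, the log2 fold change of Txnip with MK-8722 in WT was -2.05 (edgeR adjusted p = 1.2e-06) and that with torin1 was 2.9 (edgeR adjusted p = 5.5e-11). Arrdc4 then changed by -1.02 with MK-8722 (edgeR adjusted p = 0.00049) and by 1.77 with torin1 (edgeR adjusted p = 1.9e-08).

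**Figure D3:**
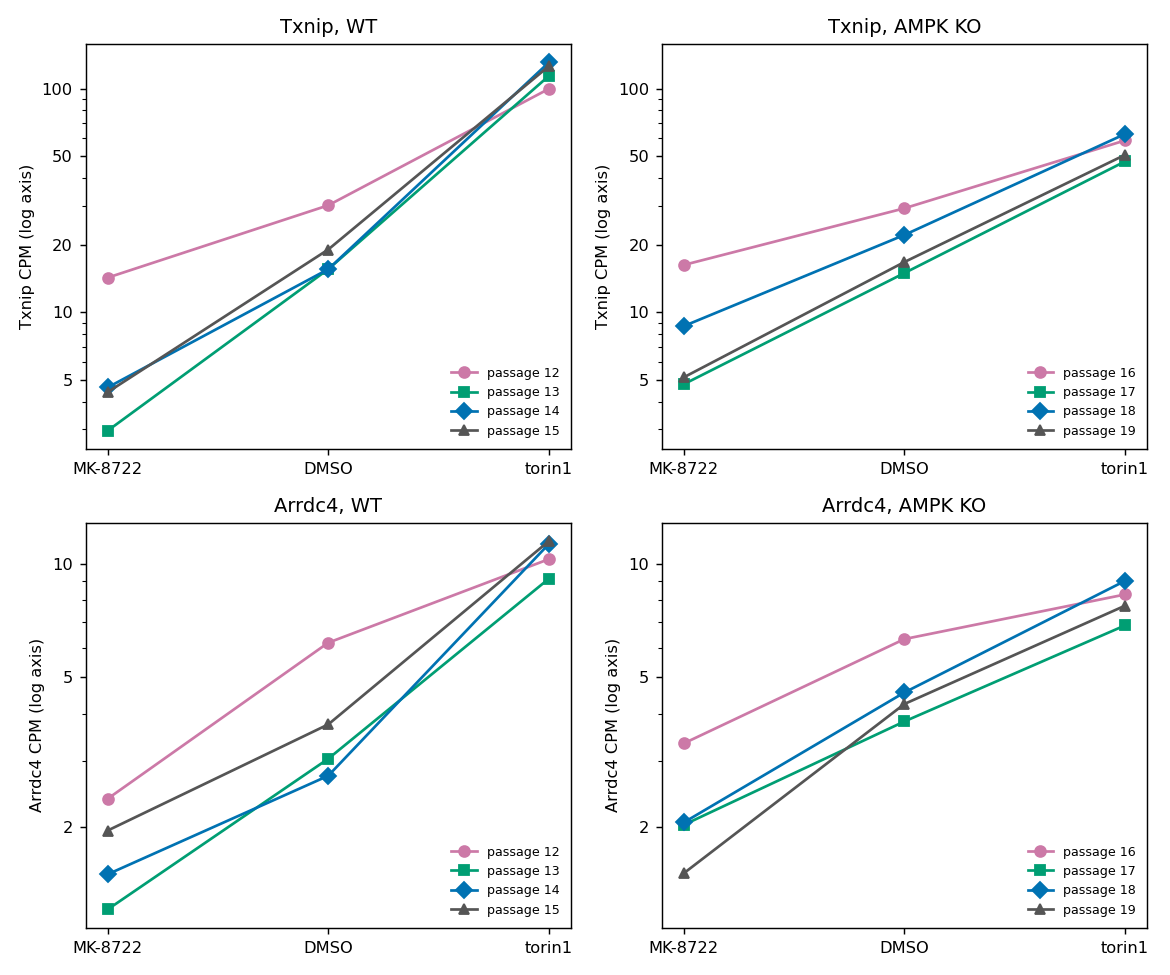
Txnip (top) and Arrdc4 (bottom) in CPM on a log axis for MK-8722, DMSO and torin1, in WT (left) and AMPK KO (right), with a line for each passage. In every passage the level rises from MK-8722 to DMSO to torin1, and the lines of passages 12 and 16 lie highest except with torin1.

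Txnip and Arrdc4 followed each other closely from library to library. Over the 24 libraries, Pearson's r of their log2 CPM was 0.98. After removal of the group means it was 0.85 (Spearman's rho 0.82), so libraries above their group in one gene tended to be above it in the other. The points share libraries, depth and, in part, passage, and r is given as a description. The corresponding r with group means removed was 0.49 for Txnip and Arrdc2, 0.0073 for Txnip and Arrdc3 and -0.24 for Txnip and Mlxip.

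**Figure D4:**
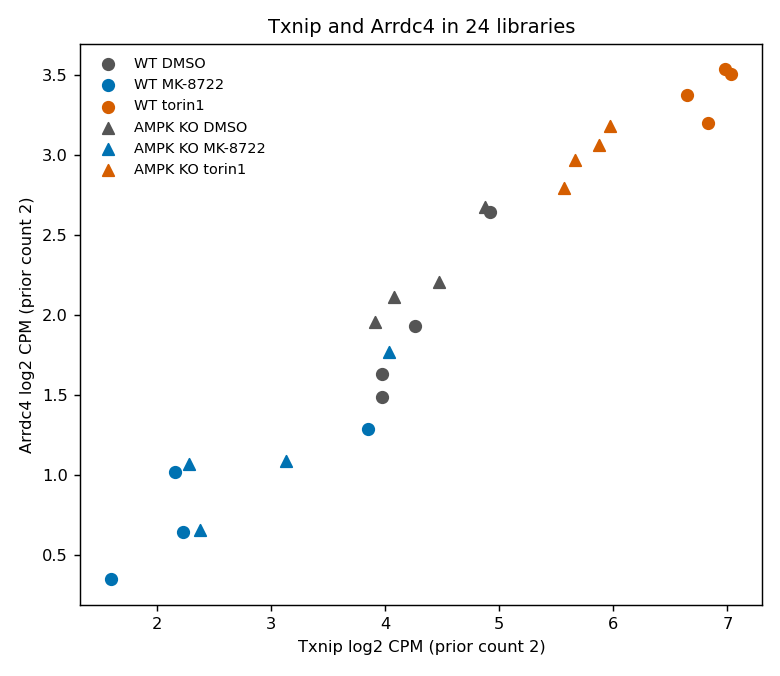
Each point is 1 of 24 libraries, with Txnip (horizontal) and Arrdc4 (vertical) in log2 CPM with a prior count of 2. Circles are WT and triangles AMPK KO, in grey for DMSO, blue for MK-8722 and orange for torin1, and the points lie along a single rising band (r = 0.98).

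Among 10550 genes with a mean of at least 5 CPM, with levels centred within each genotype over the 24 libraries, Arrdc4 ranked 1st in likeness to Txnip (Pearson's r 0.981) and Txnip ranked 1st in likeness to Arrdc4. With unnamed gene models left out, the next genes most like Txnip were Zfr (0.969), Slfn9 (0.969), Lhx2 (0.954), Rfc3 (0.95) and Ptcd1 (0.949). Those most like Arrdc4, chosen in the same way, were Zfr (0.975), Rfc3 (0.956), Slfn9 (0.954), Ppwd1 (0.946) and Gins4 (0.937). Zfr, an RNA-binding zinc finger protein gene, had group means of 116 CPM with MK-8722, 147 with DMSO and 191 with torin1 in WT, and of 147, 173 and 203 CPM in AMPK KO cells, a much narrower span than that of Txnip. Arrdc2 ranked 1482nd and Arrdc3 3332nd in likeness to Txnip, and Mlxip had a negative r (-0.739).

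Between the genotypes in DMSO, Txnip did not pass the test (20.8 ± 6.38 CPM in AMPK KO, 20.1 ± 6.89 CPM in WT, SD, n = 4 each, log2 fold change 0.04, 95% interval -0.65 to 0.74, edgeR adjusted p = 0.91), an interval that includes changes of more than 1.5-fold either way. Arrdc4 was at 3.82 to 6.32 CPM in AMPK KO and at 2.74 to 6.18 CPM in WT, with overlap (log2 fold change 0.26, SE 0.23, no test). Arrdc2 was higher in AMPK KO, at 7.59, 7.77, 8.45 and 7.2 CPM (log2 fold change 1.09, SE 0.1, edgeR adjusted p = 1.4e-09). Arrdc3 (log2 fold change -0.55, SE 0.11, edgeR adjusted p = 0.00013) and Mlxip (-0.53, SE 0.049, edgeR adjusted p = 9.8e-10) were lower. Mlxipl and Arrdc4 aside, 3 of the 4 genes were called, 1 higher and 2 lower, where 56.9% of all genes tested were (30.9% higher and 26% lower, with 33.3% upwards and 30.7% downwards without overlap).

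With torin1, Txnip was 2.15 times lower in AMPK KO than in WT (54.8 ± 7.1 against 118 ± 14 CPM, SD, n = 4 each, log2 fold change -1.1, SE 0.3, edgeR adjusted p = 0.0025), and no library of one genotype reached the other. Arrdc4 was lower by 0.4 on the log2 scale (log2 fold change -0.4, SE 0.21, edgeR adjusted p = 0.092) and also did not overlap. It did pass in a fit of these groups alone (edgeR adjusted p = 0.0023), with no filter on low counts (0.043) and without the earliest passages (0.0038). Arrdc3 was 2.08 times lower (log2 fold change -1.06, SE 0.11, edgeR adjusted p = 9.3e-09), and Mlxip was lower too (-0.37). Arrdc2 was higher (0.94). Mlxipl aside, 4 of the 5 genes were called, 1 higher and 3 lower, and 54.6% of all genes tested were (31% higher and 23.6% lower, with 34.1% upwards and 27.7% downwards without overlap).

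With MK-8722, Txnip was at 2.96 to 14.3 CPM in WT and at 4.78 to 16.3 CPM in AMPK KO, with overlap (log2 fold change 0.41, SE 0.4, edgeR adjusted p = 0.37). This value rested on the earliest passages. It was 1.12 without WT MK-8722 replicate 2 (edgeR adjusted p = 0.013) and -0.12 without AMPK KO MK-8722 replicate 2 (edgeR adjusted p = 0.8), and without both passages it was 0.6 (edgeR adjusted p = 0.035). Arrdc2 (log2 fold change 0.89) and Arrdc3 (0.44, SE 0.11, edgeR adjusted p = 0.0013) were higher in AMPK KO, the latter not called with the length offset (0.39, edgeR adjusted p = 0.075). For Arrdc3 this was the reverse of its order in DMSO and with torin1. Mlxip was lower by 0.26 on the log2 scale (log2 fold change -0.26, SE 0.049, edgeR adjusted p = 4.7e-05). It missed the fold threshold narrowly and was called in 9 of 19 alternatives. Mlxipl and Arrdc4 aside, 2 of the 4 genes were called in this comparison, both higher, and 58.9% of all genes tested (31.4% higher and 27.5% lower, with 33.2% upwards and 30.4% downwards without overlap). The summed fibroblast markers, given above, were lower in AMPK KO in every treatment, and their part in these differences was not tested.

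**Figure D5:**
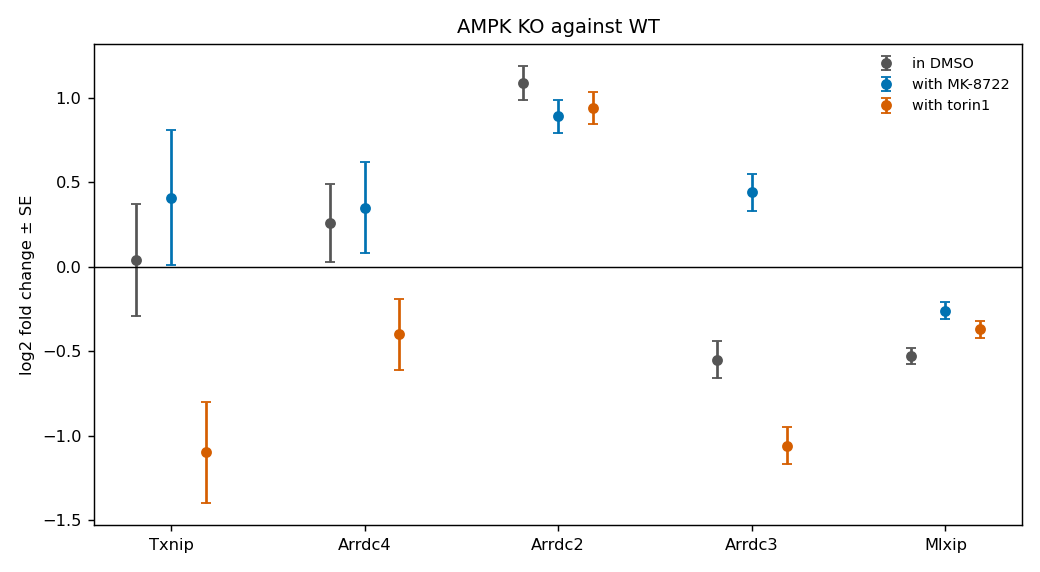
Log2 fold changes of AMPK KO against WT (points) with standard errors (bars) for 5 genes, in DMSO, with MK-8722 and with torin1. Arrdc2 lies near 1 in every treatment and Mlxip below 0, Txnip lies at 0.04 in DMSO, 0.41 with MK-8722 and -1.1 with torin1, and Arrdc3 is above 0 with MK-8722 and below 0 otherwise.

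Mlxipl, which encodes ChREBP, the glucose-responsive factor best known from liver and fat, was close to the limit of detection. In WT cells it had 0, 2, 1 and 1 counts with DMSO, no counts in any MK-8722 library, and 1, 2, 1 and 3 counts with torin1. In AMPK KO cells it had 11, 7, 14 and 15 counts with DMSO, 6, 24, 10 and 11 with MK-8722, and 27, 7, 17 and 19 with torin1. Every AMPK KO library had more counts than every WT library. In DMSO the summed counts of 47 and 4 gave a ratio of 10.6 (95% exact binomial interval 3.89 to 40.6, counting error only), and with torin1 those of 70 and 7 gave 9.42 (4.34 to 24.3). With MK-8722 the level was at least 14.3-fold higher in AMPK KO, against a floor of 3 counts over the WT group. No test between genotypes is given, because the gene passed the filter on low counts through the AMPK KO libraries. At this depth, torin1 did not change Mlxipl past the test against DMSO in AMPK KO (log2 fold change 0.53, SE 0.4, edgeR adjusted p = 0.27). In WT neither drug did. With MK-8722 in AMPK KO the log2 fold change of Mlxipl was 0.1 (SE 0.42), given without a test. Even in AMPK KO its mean stayed under 0.6 TPM, against 12.2 to 13.8 TPM for Mlxip.

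Mlx, the shared partner of MondoA and ChREBP, had a level of its own under each drug. In WT it rose with MK-8722 (28.4 to 35.5 CPM, log2 fold change 0.32, SE 0.054, edgeR adjusted p = 8.2e-05) and fell with torin1 (17.6 CPM, log2 fold change -0.69, SE 0.056, edgeR adjusted p = 2.2e-10). In AMPK KO it fell with torin1 (34.4 to 22.6 CPM, log2 fold change -0.6, edgeR adjusted p = 2e-09) and was at 32.5 CPM with MK-8722 (log2 fold change -0.08, SE 0.053, no test). Mlx and Mlxip were thus both lower with torin1, where Txnip and Arrdc4 were higher. It was called higher in AMPK KO than in WT in DMSO (log2 fold change 0.27) and with torin1 (0.36) but not with MK-8722 (-0.13). The DMSO call, at the fold threshold, was lost when any of WT DMSO replicates 1, 2, 3 and 4 or AMPK KO DMSO replicate 2 was left out, with log2 fold changes of 0.22 to 0.25.

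Of the 10 genes of the Mlx and Max network, whose proteins bind the same kind of DNA element as MondoA or compete for partners, 2 rose and 3 fell with MK-8722 in WT (median log2 fold change -0.03, 0 over all genes tested, of which 10% were called higher and 5.66% lower). Mnt was the other gene that rose (0.27, SE 0.084, edgeR adjusted p = 0.018), a call that was lost in 9 of 19 alternatives (edgeR adjusted p up to 0.11), among them those without WT DMSO replicate 2, WT DMSO replicate 4 or WT MK-8722 replicate 2 (log2 fold change 0.22 to 0.25). The repressors Mxd4 (-0.91, edgeR adjusted p = 6.1e-09) and Mxd3 (-0.4, edgeR adjusted p = 0.00081) fell most. With torin1 in WT, 2 rose (Mnt 0.63, Mxi1 0.5) and 2 fell (Mlx and Max, the latter by a log2 fold change of -0.44), with a median of 0.07 against 0.04 over all genes, of which 26.6% were called higher and 21.1% lower. In AMPK KO 5 rose with torin1, among them Myc (0.67, edgeR adjusted p = 0.00045) and Mxi1 (0.5, edgeR adjusted p = 1.2e-06), and Mlx fell (median 0.25, 0.06 over all genes, of which 25.9% were called higher and 17.6% lower). Between genotypes in DMSO 4 were higher, Mycn among them, and 4 lower, where 30.9% and 26% of all genes were called higher and lower, with Mxi1 (0.59) higher in AMPK KO and Myc (-1.29, SE 0.15) and Mxd4 (-0.78) lower. Mycn had 1 count in the 4 WT DMSO libraries together and 35 in those of AMPK KO, a ratio of 31.7 (95% exact binomial interval 5.32 to 1290, counting error only). It passed the filter on low counts through AMPK KO cells, so its call is not read as a result.

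Other genes known to respond to glucose through MondoA or ChREBP moved in both directions. Of 14 such genes 12 passed the filter on low counts and were tested. With MK-8722 in WT, Hk2, the glucose-phosphorylating hexokinase, rose (74.9 to 110 CPM, log2 fold change 0.55, SE 0.1, edgeR adjusted p = 0.00022) and the other 11 were not called (median of the 12 tested 0.01), where 15.7% of all genes were called. With torin1 in WT, 6 fell and 2 rose, with a median of -0.45 against 0.04 over all genes, of which 21.1% were called lower and 26.6% higher. Acaca, the acetyl-CoA carboxylase of fatty acid synthesis, fell by 1 on the log2 scale (log2 fold change -1, edgeR adjusted p = 2.7e-13) and Hk2 by 0.98 (log2 fold change -0.98, edgeR adjusted p = 2.1e-08). Khk, ketohexokinase of fructose use (1.48, edgeR adjusted p = 1.7e-06), and the transcription factor gene Klf10 (0.87, edgeR adjusted p = 1.7e-09) rose. Klf10 had the same order over the treatments as Txnip and Arrdc4, at 31.5 CPM with MK-8722, 37.4 with DMSO and 68.6 with torin1 in WT and at 33.9, 41.3 and 57.8 CPM in AMPK KO, an order picked out after its values were seen. Its log2 fold change with MK-8722 in WT, -0.25 (edgeR adjusted p = 0.026), was below the fold threshold.

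In AMPK KO 7 of these 12 genes fell with torin1 and 2 rose (median -0.39, 0.06 over all genes, of which 17.6% were called lower and 25.9% higher). Hk2 (-1.01, edgeR adjusted p = 2.3e-08) and Ldha, lactate dehydrogenase (-0.96, edgeR adjusted p = 1.9e-11), fell most, and Khk (0.64) and Klf10 (0.48) rose. Both Khk (interaction -0.85, edgeR adjusted p = 0.047) and Klf10 (-0.39, edgeR adjusted p = 0.028) responded less in AMPK KO than in WT. The Khk call was lost in 13 of 27 alternatives, 9 of them with a single library left out (WT DMSO replicates 1, 3 and 4, WT torin1 replicates 1 and 2, AMPK KO DMSO replicates 1 and 4, and AMPK KO torin1 replicates 1 and 2), with an adjusted p of up to 0.13. That of Klf10 was lost in 3, without WT DMSO replicate 2 (0.06), without AMPK KO DMSO replicate 1 (0.065) and with the length offset (0.071). In DMSO 3 were higher in AMPK KO, led by Khk (2.25) and Gpd1 (1.69), and 5 lower, led by Tkt (-0.86) and Scd1 (-0.81), where 56.9% of all genes were called.

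Among the other arrestins, Arrdc1, an α-arrestin that acts in vesicle release from the cell surface, rose with torin1 in WT (16.2 to 31.1 CPM, log2 fold change 0.94, SE 0.06, edgeR adjusted p = 4.3e-12). The rise in AMPK KO was 0.62 (edgeR adjusted p = 4.7e-09) and smaller than in WT (interaction -0.32, edgeR adjusted p = 0.018, and 0.055 with no filter on low counts). It was not called with MK-8722 in WT. Arrb2, a β-arrestin, rose with torin1 in WT (0.52) and AMPK KO (0.36). Arrb1 fell with MK-8722 in WT (-0.67, SE 0.1, edgeR adjusted p = 1.8e-05) and with torin1 in AMPK KO (-0.61), and was higher in AMPK KO in DMSO (1.14). Arrdc5 was near 0 and not tested, so 1 of 3 tested genes was called with MK-8722 in WT, 2 with torin1 in WT and 3 with torin1 in AMPK KO, where 15.7%, 47.6% and 43.5% of all genes were called.

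The 7 ubiquitin ligases with WW domains, which bind α-arrestins, had 2 called genes with MK-8722 in WT, 3 with torin1 in WT and 2 with torin1 in AMPK KO. With MK-8722 in WT, Nedd4l (0.41, edgeR adjusted p = 0.00045) and Smurf1 (0.38, edgeR adjusted p = 7.6e-06) rose and none fell, where 15.7% of all genes were called. With torin1, Wwp2 (0.44) and Nedd4l (0.36) rose and Wwp1 fell (-0.34) in WT, and Nedd4l (0.4) and Wwp2 (0.33) rose in AMPK KO, where 47.6% and 43.5% of all genes were called. The Wwp1 fall was not called with scaling by library size alone (log2 fold change -0.24), and the Wwp2 rise in AMPK KO was not called without AMPK KO DMSO replicate 3 or AMPK KO torin1 replicate 4 (log2 fold change 0.24 and 0.26). In DMSO, 3 were lower in AMPK KO, led by Nedd4 (-0.67) and Smurf2 (-0.62), where 26% of all genes were called lower. With MK-8722, 6 of the 7 were lower in AMPK KO and none was higher, where 27.5% of all genes were called lower. With torin1, 3 were lower and none was higher, where 23.6% of all genes were called lower.

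Of 9 genes for cargo or partners of α-arrestins, Slc2a1, which encodes the glucose transporter GLUT1, was 105 CPM with DMSO, 131 with MK-8722 (log2 fold change 0.32, edgeR adjusted p = 0.0022) and 48.1 with torin1 (-1.12, edgeR adjusted p = 1.5e-11) in WT. Its order over the treatments was the reverse of that of Txnip, and was picked out after its values were seen. Other listed genes, Hk2 and Mlx among them, had the same order as Slc2a1 in WT. With MK-8722, 3 of the 9 were called in all, none lower (median 0.02, 0 over all genes, of which 15.7% were called). With torin1 in WT, 6 fell and 2 rose (median -0.58, 0.04 over all genes, of which 47.6% were called), with Slc11a2, a metal ion transporter (-1.18), falling most. Itgb4, encoding integrin β4, rose (2.13, from 0.356 to 1.57 CPM), as did Insr, the insulin receptor gene (0.61). In AMPK KO 6 fell, led by Slc11a2 (-0.92) and Txn2, mitochondrial thioredoxin (-0.85), and 3 rose, led by Itgb4 (1.55) and Insr (0.75), where 43.5% of all genes were called. In DMSO, 4 were higher in AMPK KO, led by Itgb4 (3.02) and the glucose transporter gene Slc2a4 (2.37), and none was lower, where 30.9% of all genes were called higher and 26% lower.

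In the torin1 interaction, where 7.07% of all genes were called, the called genes of these lists were 1 of 10 of the Mlx and Max network (Mga, 0.3, edgeR adjusted p = 0.023), 2 of 12 glucose-responsive genes, 2 of 3 arrestins (Arrdc1 and Arrb1, the latter -0.44, edgeR adjusted p = 0.038), 2 of 7 ligases and 1 of 9 cargo or partner genes (Slc2a1, 0.4, edgeR adjusted p = 0.022). Among the ligases Itch (0.39, SE 0.059, edgeR adjusted p = 0.00026) was called without exception over the alternatives, whereas Wwp1 (0.27, edgeR adjusted p = 0.043) was not. The calls of Mga, Arrb1, Slc2a1 and Wwp1 were lost on leaving out single libraries, for example without AMPK KO torin1 replicate 1 for Mga (0.052), Arrb1 (0.083) and Wwp1 (0.081), and without AMPK KO torin1 replicate 2 for Slc2a1 (0.15). With torin1 against MK-8722 in WT, 4 network genes were higher and 2 lower, 2 and 6 of the glucose-responsive genes, 3 and 0 of the arrestins, 1 and 4 of the ligases, and 2 and 6 of the cargo or partner genes, where 24.5% of all genes were called higher and 21.2% lower. In AMPK KO against WT with MK-8722, 3 network genes were higher and 4 lower. The counts were 3 and 4 for the glucose-responsive genes, 2 and 0 for the arrestins, and 4 and 1 for the cargo or partner genes. With torin1 they were 5 and 3 for the network, 4 and 5, 1 and 0, and 5 and 0 in the same order. Mycn, which passed the filter through AMPK KO cells, is among the higher network genes in both.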

How the data were processed

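Poly(A) RNA of 24 MEF libraries was sequenced as paired-end reads. Following the methods of the study, the authors used nf-core/rnaseq with STAR on GRCm38 and UMI-tools options. The deposited gene table holds estimated counts, not normalized and in part not whole, and the deposited transcript tables hold TPM, estimated counts and lengths. Groups came from the deposited labels. Counts were rounded, genes filtered with filterByExpr, libraries TMM-scaled, and 6 group means over all 24 libraries fitted by quasi-likelihood (edgeR 4.0.16, limma 3.58.1, R 4.3.3). Two-sided p-values were adjusted by Benjamini and Hochberg over 15828 genes. Log2 CPM used a prior count of 2. TPM served for levels between genes, and transcript lengths for an offset. The gene counts equalled summed transcript counts within 1.2e-10. The code was tested on simulated counts.

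The 6 genes, the lists and the tests were chosen with earlier results of these data known. List genes are named for comparisons with DMSO, for the torin1 interaction and between genotypes in DMSO, at most 2 with the largest change each way, with Mlx throughout, and by counts elsewhere. Alternatives were other scalings, filters, a length offset, blocks, fits of the compared groups alone, DESeq2 1.42.0, no fold threshold and leaving out libraries. Same-passage libraries of different groups deviated together (r over 0.1) in 6 of 12 pairs in WT and 9 of 12 in AMPK KO, and same-numbered libraries in 2 of 12 each. Neither number was taken as pairing. Floors and intervals cover counting error alone, and uncertain splits between near-identical copies were not examined. Some members of the lists are not reported here by name.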

Additional observations from a re-analysis of the deposited data

Results flagged for a closer look

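A library that lay far from the other 3 of its group was sought in 35 sets of 4 values, and 3 were found, where chance gives about 1 in 20. Txnip was at 14.3 CPM in WT MK-8722 replicate 2, of passage 12, against 2.96 to 4.62 CPM in the other libraries. Mlxip was at 48.9 CPM in AMPK KO DMSO replicate 4, against 54.9 to 55.3 CPM, and at 47.2 CPM in AMPK KO torin1 replicate 2, against 42.9 to 43.6 CPM.

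Responses were flagged where the torin1 interaction was called, or where all passages of the genotypes moved in opposite directions. Those flagged were of Arrdc3 and Mlxip. The torin1 response of Arrdc3 differed by -0.51 on the log2 scale (AMPK KO minus WT, SE 0.16, edgeR adjusted p = 0.04). That call was lost in 8 of 27 alternatives, with an edgeR adjusted p of up to 0.34. The torin1 difference of Txnip was larger (-1.15, SE 0.45) but was not called in the main fit (edgeR adjusted p = 0.11). With MK-8722, Arrdc3 fell short of its passage's DMSO level in 4 of 4 WT passages and exceeded it in 4 of 4 AMPK KO passages (difference 0.99, SE 0.16). Mlxip had the same opposite directions (difference 0.27, SE 0.069). These MK-8722 differences were not tested, because the comparison had been used to choose the genes.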

How the results depend on the processing

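Of 716 values of the 5 genes without Mlxipl under alternatives to tested results, 662 kept their direction and their side of the threshold. A call was lost in 29 and gained in 19, and 6 turned in sign, none of which was a called change. The falls of Txnip and Arrdc4 with MK-8722 in WT and their rises with torin1 in WT were called under every alternative run. The log2 fold change of Arrdc4 with MK-8722 in AMPK KO lay between -1.18 and -0.91 under other settings and between -1.35 and -0.92 with a library left out. The number of the 5 genes called in the torin1 interaction was 1, and became 0 with no filter on low counts, 0 with the length offset, 2 in a fit of the compared groups alone, 2 without the earliest passages (12 and 16, chosen after the data had been seen), and 0 to 1 without a library. With AMPK KO against WT under MK-8722, Mlxipl aside, Txnip and Mlxip were called in addition without the earliest passages (log2 fold changes 0.6 and -0.28). The same was seen without WT MK-8722 replicate 2 (1.12 and -0.27). Mlxip alone was added without WT MK-8722 replicate 1 or AMPK KO MK-8722 replicates 1, 2 or 3. Sign changes were 0.01 for Arrdc2 (torin1 interaction, length offset) and 0.01 for Mlxipl (torin1 interaction, without the earliest passages). With a library left out, log2 values ranged from -0.17 to 0.3 for Txnip in DMSO and from -0.12 to 1.12 with MK-8722 between genotypes, and in the torin1 interaction from -0.65 to 0.26 for Mlxipl and from -0.01 to 0.12 for Mlx. The cause was not tested.

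With a replicate block by passage, the torin1 interaction called 2 of the 5 genes, the added one being Txnip (-1.17, edgeR adjusted p = 0.015), and Arrdc4 was also called between genotypes with torin1 (-0.41, edgeR adjusted p = 0.014). With the block by replicate number 0 were called in the interaction. Neither block changed another call of the 6 genes. Over all genes the passage block moved the calls from 247 to 729 with MK-8722 in AMPK KO and from 1119 to 1861 in the torin1 interaction.

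Other counts over all genes that moved by over 1.5 times were 4447 in place of 2483 with MK-8722 in WT without the fold threshold, and with MK-8722 in AMPK KO 137 with the length offset, 130 without AMPK KO DMSO replicate 1, and 121 and 147 without AMPK KO MK-8722 replicates 1 and 4. Scaling by library size alone shifted the all-gene median (log2) from 0.04 to 0.14 with torin1 in WT and from 0.02 to 0.15 between genotypes in DMSO, and the share of calls that were higher from 55.8% to 67.5% and from 54.3% to 67.4%. It moved this share also for torin1 against MK-8722 (53.5% to 65.3%), between genotypes with torin1 (56.7% to 66.8%) and with MK-8722 in AMPK KO (55.5% to 45.1%). For the torin1 interaction the share was 58.7%, and 42.1% under this scaling, 48.5% with DESeq2 size factors, 36% with at least 10 counts in every library, 27% in a fit of the compared groups alone, 31.2% without the earliest passages, and 26.8% to 29.1% without WT torin1 replicates 1 or 3, AMPK KO DMSO replicates 3 or 4, or AMPK KO torin1 replicates 2 or 4. Counts under about 10 per library limit what can be said of Mlxipl.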
